A study of Arabidopsis thaliana with 5 samples.

Results

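The RALF-like genes (RALFL) encode small secreted peptides of the rapid alkalinization factor family. They were taken as every Affymetrix ATH1 probe set that names exactly 1 gene whose symbol in the platform annotation starts with RALFL and a digit. This gave 11 probe sets for 11 genes, among 13350 genes named in this way and 22746 probe sets that are not array controls. The genes were RALFL18, RALFL22, RALFL24, RALFL25, RALFL26, RALFL27, RALFL28, RALFL31, RALFL32, RALFL33 and RALFL34. The RefSeq gene table for TAIR10.1 names 34 genes of the family, RALF1 and RALF23 among them, and the other 23 were not analysed here. The rule used names only and no measured value, but it was set with earlier results of these data known.

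RALF peptides are made as precursors, secreted to the cell wall, and bound there by receptor kinases of the CrRLK1L family such as FERONIA (FER) and THESEUS1 (THE1). They are best known for making the space outside the cell more alkaline and for restraining the elongation of root cells. Brassinosteroids are steroid hormones that promote cell elongation. In Arabidopsis seedlings the family member RALF23 is known as a gene lowered by brassinolide, and its precursor is cut by the subtilase S1P.

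The cells came from primary root tips of 6-day-old Arabidopsis thaliana seedlings carrying a nuclear yellow fluorescent protein driven by the BRL3 promoter. BRL3 is a brassinosteroid receptor, and all 5 samples carry this reporter. The treated group (BL, 2 arrays) was kept for 2 h in liquid medium holding brassinolide at 10 nM, and the control group (3 arrays) in medium with ethanol as mock. Roots were then digested to protoplasts and the fluorescent cells were sorted, so the samples are cells with BRL3 promoter activity after wall digestion, not intact tissue. Whether replicates were separate seedling batches is not stated in the labels, and the spread behind each p-value, being that among these arrays, may be technical. In such pooled cells, fewer cells of a type and less RNA per cell cannot be told apart. Values are log2 expression from robust multi-array averaging (RMA), and the number of arrays limits their precision.

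Control replicates 2 and 3 stood apart from the other arrays by their spike-in signal. The median of the 3' probe sets of the poly-A spike-ins, bacterial transcripts added before labelling, was 4.53 and 4.76 in the BL arrays. It was 4.72 in control replicate 1, 8.31 in control replicate 2 and 7.64 in control replicate 3. Across probe sets, the correlation with the BL arrays was 0.898 and 0.905 for control replicate 2, 0.951 and 0.952 for control replicate 3, and 0.969 and 0.974 for control replicate 1. Control replicate 3 correlated at 0.955 with control replicate 1 and at 0.915 with control replicate 2, so by this measure control replicate 2 was the array that stood apart. Each BL minus control difference of a RALFL or pathway gene is therefore followed by the BL mean minus control replicate 1 alone, called the difference to control replicate 1. The part of these array differences in the RALFL values was not tested.

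RALFL32 had the widest difference of the family. It was at 7.72 and 8.67 in the BL arrays, against 9.98, 10.78 and 10.54 in control replicates 1 to 3. Both BL arrays lay below every control, and 1.31 log2 units separated the higher BL array from the lowest control. The BL mean was 8.19 ± 0.67 (SD, n = 2) and the control mean 10.43 ± 0.41 (SD, n = 3), a 4.72-fold lower level with BL. The log2 difference was -2.24 ± 0.40 (SE), with a 95% interval of -3.33 to -1.15 for this gene taken alone. It did not pass limma after p-values were adjusted over all probe sets by Benjamini-Hochberg (unadjusted p = 0.00433, adjusted p = 0.56). No probe set of the array passed at an adjusted p under 0.05 (percent called 0), so neither this nor any other difference below is a call. At an unadjusted p under 0.05, 3.06% of all probe sets were lower with BL, and RALFL32 was the 1 RALFL gene among them. A log2 difference of -2 or lower was found in 0.312% of all probe sets and in RALFL32 alone of the 11 genes. In all, 0.163% of probe sets had a difference as low as that of RALFL32 or lower.

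RALFL32 was also lower with BL when the arrays that stood apart were set aside. Its difference to control replicate 1 was -1.79, a 3.45-fold lower level with BL, and 4% of all probe sets were lower by 1 log2 unit or more in that comparison. With a model term for control replicates 2 and 3, limma gave an unadjusted p of 0.0336 and an adjusted p of 0.582. In that fit, too, the difference rests on control replicate 1 as the lone control. The spread comes from the 2 BL arrays and from control replicates 2 and 3. Without those 2 arrays the unadjusted limma p was 0.156, in a fit where the spread comes from the 2 BL arrays alone and the lone control is assumed to vary like them. The exact permutation test over the 5 arrays gave p = 0.1 (two-sided), the smallest that 10 splits allow.

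**Figure D1:**
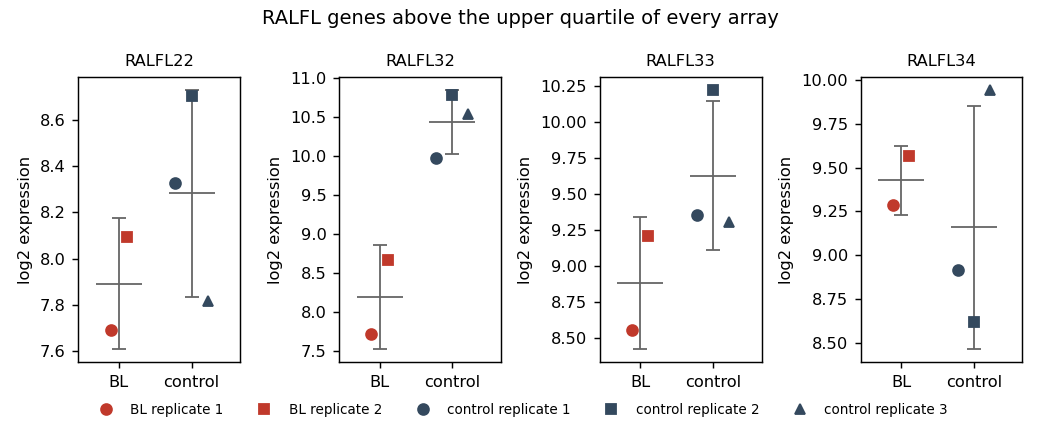
Log2 expression (vertical axis, a separate range for each gene) of the 4 RALFL genes that lay above the upper quartile of every array, by group. Red points are the 2 BL arrays, dark points the 3 control arrays, and the grey bars give mean and SD. In RALFL32 the BL arrays sit at 7.72 and 8.67 and all controls at 9.98 or higher, while in RALFL34 the BL arrays lie between the controls.

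RALFL33 and RALFL22 had lower means with BL than in controls, by smaller amounts. RALFL33, whose peptide is known as a ligand of FER in the stigma, was at 8.55 and 9.20 in the BL arrays, against 9.36, 10.22 and 9.30 in control replicates 1 to 3. The BL arrays lay below every control here too, but BL replicate 2 was only 0.0992 log2 units under the lowest control. The difference was -0.75 ± 0.39 (SE), a 1.68-fold lower level with BL, and it did not pass (limma adjusted p = 0.766). Its 95% interval of -1.81 to 0.32 includes 0, and its difference to control replicate 1 was -0.48.

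RALFL22 encodes a peptide that acts with FER and with cell wall extensins. It was at 7.69 and 8.09 in the BL arrays, against 8.33, 8.70 and 7.81 in control replicates 1 to 3. Control replicate 3 lay between the BL arrays, so the groups overlap. The difference was -0.39 ± 0.32 (SE; limma adjusted p = 0.804), and it was -0.44 to control replicate 1.

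RALFL34, a ligand of THE1 with a role in lateral root initiation, had a higher mean with BL. It was at 9.29 and 9.56 in the BL arrays, against 8.91, 8.62 and 9.94 in control replicates 1 to 3. Control replicate 3 was above both BL arrays, and the other controls were below them. The difference was 0.27 ± 0.45 (SE), with a 95% interval of -0.96 to 1.50, and it did not pass (limma adjusted p = 0.88). It was 0.51 to control replicate 1, and it turned to -0.13 when arrays were weighted by their quality and to -0.0023 without control replicate 2.

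Set against the other 3 genes within the same array, RALFL32 was lower with BL each time. These pairs were chosen after the values had been seen. RALFL32 minus RALFL33, which cancels any shift common to an array, was -0.83 and -0.54 in the BL arrays, against 0.62, 0.56 and 1.24 in control replicates 1 to 3. RALFL32 minus RALFL22 was 0.03 and 0.57 in the BL arrays, against 1.65, 2.07 and 2.72 in the controls. RALFL32 minus RALFL34 was -1.57 and -0.90 in the BL arrays, against 1.06, 2.16 and 0.59 in the controls. The groups do not overlap in any of the 3 pairs. All 3 pairs hold the same RALFL32 values, in which the groups already lay 1.31 log2 units apart. The pairs are thus not independent of that difference or of each other. How often pairs of other probe sets separate in this way was not counted. Only the change of such a pair can be read, since levels of different probe sets are not comparable. BL minus control was -1.49 for the pair with RALFL33, -1.85 for RALFL22 and -2.51 for RALFL34. Against control replicate 1 these were -1.31, -1.35 and -2.30. Each exact permutation test (two-sided) gave p = 0.1, the smallest that 10 splits allow, and 0.1 after Benjamini-Hochberg adjustment over the 3 pairs.

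**Figure D2:**
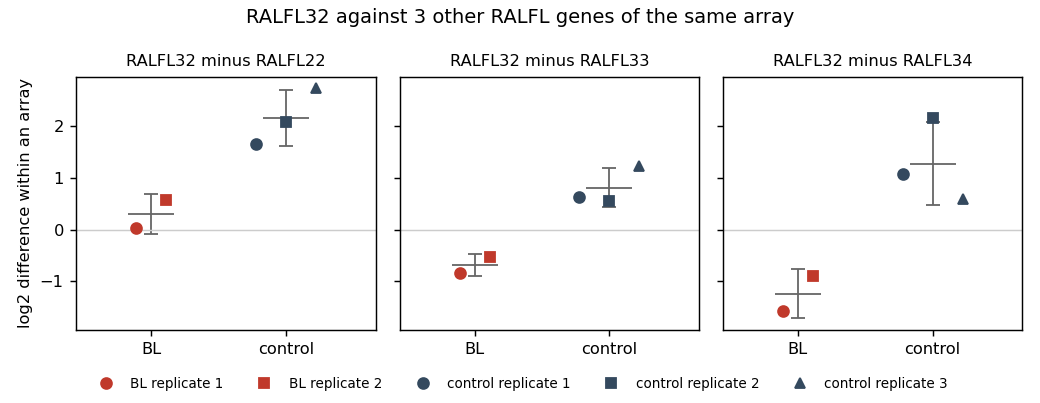
Log2 difference within an array (vertical axis) between RALFL32 and RALFL22, RALFL33 or RALFL34, by group. Red points are BL arrays, dark points control arrays, and grey bars give mean and SD. In each panel the BL arrays lie below all 3 controls, for example at -0.83 and -0.54 against 0.56 to 1.24 for the pair with RALFL33.

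The other 7 genes lay lower on the arrays, none of them above the upper quartile on all 5. RALFL25, RALFL26 and RALFL28 were below the lower quartile of every array, which lay between 4.11 and 4.29. RALFL18 and RALFL31 were between the lower quartile and the median on every array. RALFL27 was below the lower quartile on 4 arrays, and RALFL24 was above the median on 4. A position of this kind depends on the probes as well as on the transcript, and the height of these values over background was not analysed. RMA gave exactly tied values on 2 or more arrays for 5 of the 11 RALFL genes, all of them among these 7. The share over all probe sets was 44.7%.

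RALFL24 and RALFL27 were set apart by a single array. RALFL24 was at 5.95 in both BL arrays and at 5.54, 7.73 and 5.95 in control replicates 1 to 3. RALFL27 was at 3.96 and 4.09 in the BL arrays, against 3.96, 5.86 and 4.09 in the controls. Control replicate 2 was the high array in both genes, and the other controls lay close to the BL arrays. The differences of -0.45 ± 0.74 and -0.61 ± 0.67 (SE) turned to 0.41 and 0.06 against control replicate 1. Neither passed limma with adjustment (adjusted p = 0.876 and 0.835). Control replicate 2 was also the highest array of the root hair gene EXPA7, an expansin of hair cells, and of EXPA18, described with the markers. The same held for AGL42 of the quiescent centre, for the leaf transcript RCA, and for 31.4% of all probe sets. EXPA7 was at 4.57 and 4.96 in the BL arrays, against 4.20, 6.52 and 4.38 in control replicates 1 to 3. The part of cell composition in these values was not tested.

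RALFL31 was at 4.55 and 4.63 in the BL arrays, against 4.57, 4.94 and 5.05 in control replicates 1 to 3. Control replicate 1 lay between the BL arrays and the other controls were higher. Its difference was -0.26 ± 0.18 (SE; limma adjusted p = 0.789), and it turned to 0.02 against control replicate 1. RALFL18 was at 4.86 and 4.66 in the BL arrays, against 4.79, 4.53 and 4.39 in the controls. Its difference of 0.19 ± 0.16 (SE; limma adjusted p = 0.81) turned to -0.03 against control replicate 1.

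RALFL25 and RALFL26, known as pollen genes of Arabidopsis, are direct neighbours in the RefSeq gene order, with 0 protein-coding genes between them. RALFL26 was at 3.84 and 3.91 in the BL arrays, against 3.91, 4.06 and 3.91 in control replicates 1 to 3. The BL arrays were below every control, but by 0.00144 log2 units, far less than the spread between arrays. RALFL25 was at 3.73 and 3.60 in the BL arrays, against 3.57, 3.70 and 3.70 in the controls. RALFL28 was at 3.71 in both BL arrays, against 3.54, 3.77 and 3.75 in the controls. The groups overlap in RALFL25 and RALFL28. The differences of RALFL25, RALFL26 and RALFL28 were 0.0095, -0.086 and 0.024, with limma adjusted p of 0.987, 0.837 and 0.96. Against control replicate 1 they were 0.093, -0.037 and 0.17, in the same order of genes.

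**Figure D3:**
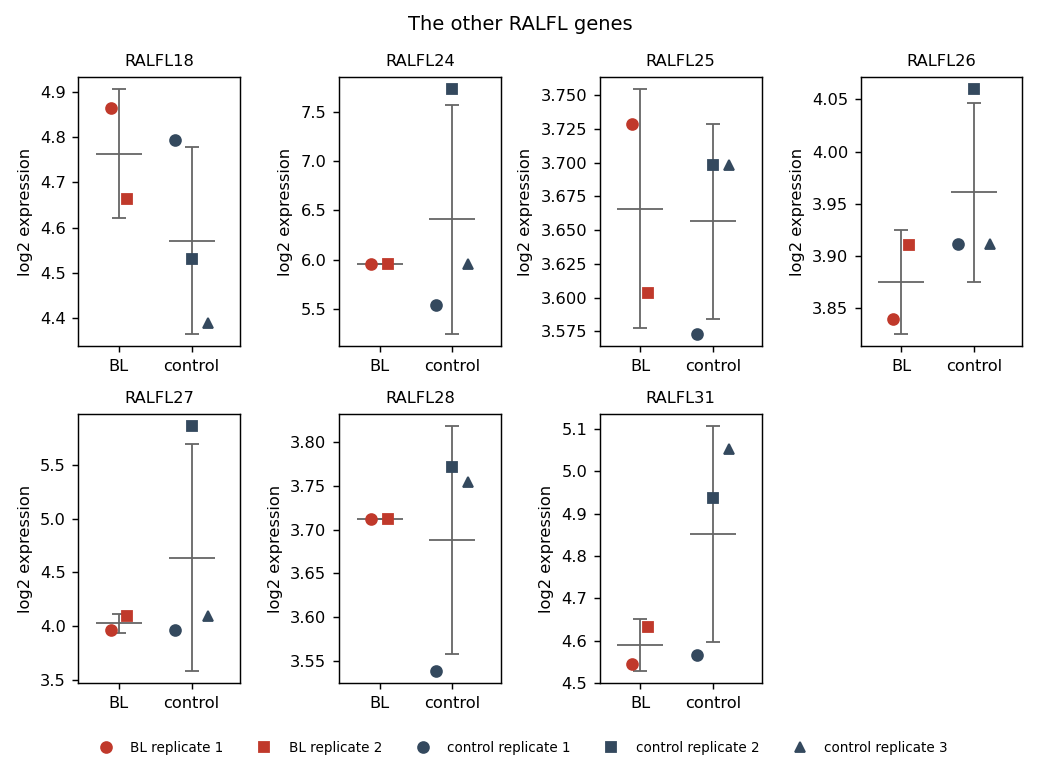
Log2 expression (vertical axis, a separate range for each gene) of the other 7 RALFL genes by group. Red points are BL arrays, dark points control arrays, and grey bars give mean and SD. Control replicate 2 is far above the rest in RALFL24, at 7.73, and in RALFL27, at 5.86.

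Over the family, 7 of the 11 genes had a lower mean with BL and 4 a higher one, where 54.6% of all probe sets had a lower mean. The median difference was -0.26 for the 11 genes and -0.02 for all probe sets. Against control replicate 1, 5 genes were lower and 6 higher, with a median of 0.02 for the 11 genes and 0.0029 for all probe sets. Both BL arrays lay below every control in 3 of the 11 genes, RALFL26, RALFL32 and RALFL33, where the share over all probe sets was 9.75%. In 0 of the 11 did both lie above every control, where the share was 11.4%. Of the 3, 1 rests on the gap of 0.00144 in RALFL26, and 2 were left after median centring or a further quantile normalization. The share of all probe sets without overlap, in either direction, was 23.5% after median centring and 26.2% after that quantile normalization. Control replicate 2 was the highest array in 7 of the 11 genes and in 31.4% of all probe sets. BL replicate 1 was the lowest array in 6 of the 11 genes and in 15.6% of all probe sets.

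**Figure D4:**
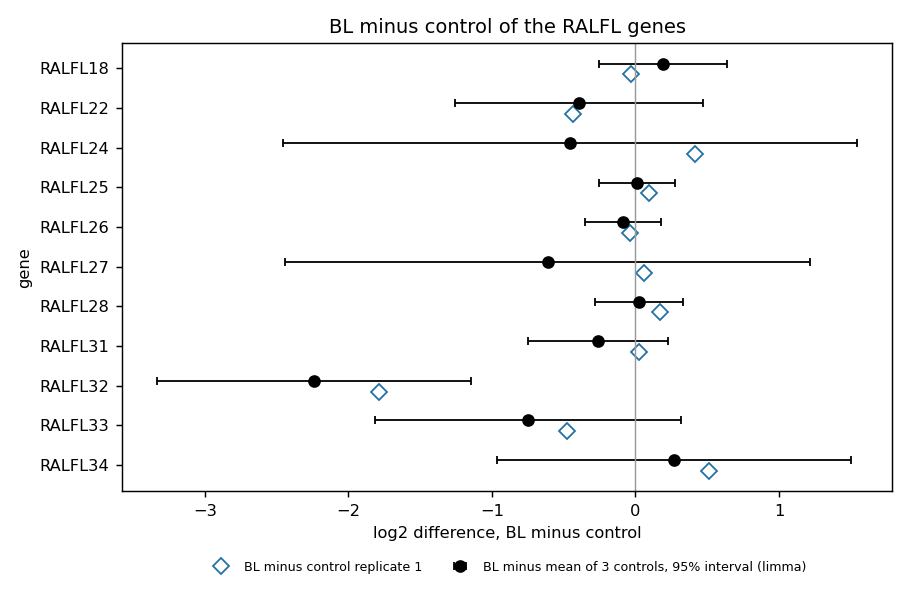
Log2 difference of BL minus control (horizontal axis) for each RALFL gene (vertical axis). Black points with bars are the difference to the mean of the 3 controls with its 95% interval from limma, for each gene taken alone, and open diamonds are the difference to control replicate 1. RALFL32, at -2.24 and -1.79, lies well below the others, and the diamonds of RALFL18, RALFL24, RALFL27 and RALFL31 fall on the other side of 0 from their black points.

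The 4 genes that lay high on every array do not sit together in the genome. RALFL31 and RALFL32 have 10 protein-coding genes between them in the RefSeq order, and RALFL32 and RALFL33 have 230. RALFL31, the nearest to RALFL32 of the 11 genes, differed by -0.26 where RALFL32 differed by -2.24. The family genes not analysed here were not placed in this order. RALFL31 also lay below the median of every array and RALFL32 above the upper quartile, so the sizes of the 2 differences are not directly comparable.

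For the 2 RALFL genes with the smallest p, the 3 single-gene probe sets with the most similar profile over the 5 arrays were looked up. Likeness was the root mean square distance between log2 profiles after each gene's mean was removed. For RALFL32 these were AT3G48970, AT1G48750 and AT1G72230, at distances of 0.0298, 0.198 and 0.216 log2 units. AT3G48970 was at 6.82 and 7.75 in the BL arrays, against 9.09, 9.89 and 9.71 in control replicates 1 to 3. It thus followed RALFL32 array by array, and its BL minus control was -2.28 (limma adjusted p = 0.558) and -1.81 against control replicate 1. For RALFL33 the closest were AT4G29950, AT4G39670 and AT3G09085, at 0.0852, 0.103 and 0.118 log2 units. These are the nearest of 13513 single-gene probe sets on only 5 arrays, so near matches arise by the number searched.

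Of the genes that act with RALF peptides, 46 were listed as receptors, coreceptors, wall extensins, a processing protease, downstream factors and RALF1-induced genes. Of these, 18 had a single-gene probe set, and 6 of the 18 also had the listed name in the tables used here. The 6 were 4 receptors, the protease and 1 downstream factor. No coreceptor, wall extensin or RALF1-induced gene was thus read, and 8 wall extensins with a probe set were left out by name alone. Of the 6, 0 passed limma with adjustment, where percent called over all probe sets was 0. At an unadjusted p under 0.05, too, there were 0 of 6, against 7.1% of all probe sets.

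FER, the receptor of several RALF peptides, was at 8.45 and 8.93 in the BL arrays, against 8.71, 7.37 and 7.45 in control replicates 1 to 3. Control replicate 1 lay between the BL arrays, and the controls that stood apart were lower. The difference of 0.85 ± 0.50 (SE; limma adjusted p = 0.777) was -0.02 to control replicate 1. THE1, the receptor of the RALFL34 peptide, was at 8.95 and 9.41 in the BL arrays, against 8.33, 9.21 and 8.29 in the controls. Control replicate 2 lay between the BL arrays and the other controls were below them. Its difference was 0.57 ± 0.36 (SE; limma adjusted p = 0.785) and 0.85 to control replicate 1.

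ANX1 and ANX2, CrRLK1L receptors of pollen tubes, were between 3.77 and 4.56 on all arrays. They differed by -0.16 and -0.14 (limma adjusted p = 0.872 and 0.793). Against control replicate 1 ANX1 turned to 0.21, and ANX2 was at -0.079. S1P, the protease that cuts RALF23, was at 7.88 and 7.38 in the BL arrays, against 7.45, 7.74 and 7.58 in the controls. Its difference was 0.04 ± 0.20 (SE; limma adjusted p = 0.962) and 0.18 to control replicate 1. CML38, a calmodulin-like calcium sensor, was at 9.54 and 9.62 in the BL arrays, against 9.97, 10.11 and 7.26 in the controls. Control replicate 3 was the low array, and the difference was 0.47 ± 1.01 (SE; limma adjusted p = 0.905). It turned to -0.39 against control replicate 1.

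Few markers of root cell types could be read. Of 21 listed, 4 had a single-gene probe set and a name in the tables used here, and BRL3 itself was not analysed, so the sorted identity was not checked beyond these. AGL42, a gene of the quiescent centre, was at 4.22 and 4.10 in the BL arrays, against 4.17, 4.55 and 4.22 in the controls, close to the lower quartile. EXPA18, the other hair cell expansin, was at 4.87 and 5.54 in the BL arrays, against 4.35, 6.17 and 4.66 in the controls. RCA, an abundant leaf transcript, was at 4.50 and 4.65 in the BL arrays, against 4.77, 4.95 and 4.64 in the controls. None of the 4 passed limma with adjustment (adjusted p of 0.781 to 0.958).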

How the data were processed

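The deposited table holds log2 expression values of 5 arrays, made by the authors with RMA (background subtraction, quantile normalization, median polish); the submitters' processing notes list R 4.1.1 with affy 1.70.0 and limma 3.48.3. The logarithm's base, not given in the sources used here, was taken as 2 because RMA works in base 2 and values lay between 2.99 and 14.1. Scanner files were not used here. The 64 control probe sets were set aside. Of the 22746 others, 13513 name 1 gene, 503 several and 8730 none in the platform annotation. Of the RALFL genes, 10 matched the RefSeq table by gene ID and 1 by symbol, and each had 1 probe set. The array values name no genome build, so no coordinates are printed, and no sequences were used.

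BL and control were compared by lmFit and eBayes of limma 3.58.1 (R 4.3.3), fitting treatment alone over all 5 arrays. P-values were adjusted over all probe sets by Benjamini-Hochberg and held to 0.05. The fit was tested on simulated data with independent noise, the same SD for a probe set on all 5 arrays, and no array effect. In the real arrays the median SD was 0.0816 in BL and 0.264 in controls. The simulation therefore does not show how the fit behaves with such unequal spread. The named genes are all RALFL genes, all pathway and marker genes that could be read, and the 3 nearest profiles of the 2 RALFL genes with the smallest p. Listed loci whose names the tables do not give were left out. The members, lists and alternatives were chosen with earlier results of these data known.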

Additional observations from a re-analysis of the deposited data

How the results depend on the processing

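RALFL32, RALFL22, RALFL33 and RALFL26 kept their direction in all alternatives run, RALFL32 between -2.71 and -1.77, and RALFL32 had an unadjusted limma p under 0.05 in 14 of 15, the exception being the fit without controls 2 and 3. Over all 11 genes, 141 of 156 values kept their direction. The eBayes trend, ordinary and above-median fits, and the floor except for RALFL27, repeat the main differences and cannot turn. No probe set passed at an adjusted p under 0.05 in any fit. In the main limma fit, 1616 probe sets had an unadjusted p under 0.05. Differences were the same with a term for controls 2 and 3 as without these 2 arrays. RALFL18 turned to -0.031, RALFL24 to 0.414, RALFL27 to 0.0603, RALFL31 to 0.0235 and the family median to 0.0235. Without them, where the lone control is assumed to vary like the BL arrays, 8 of 11 genes did not overlap (66.8% of all probe sets), 2 genes had an unadjusted p under 0.05, and 4753 probe sets did (20.9%). Array weights gave -0.0052 for RALFL25, -0.126 for RALFL34 and 3505 probe sets, and the ordinary linear model 993 probe sets. With 1 array left out, ranges were 0.0914 to 0.304 for RALFL18, -0.625 to -0.18 for RALFL22, -0.888 to 0.207 for RALFL24, -0.0531 to 0.072 for RALFL25, -0.948 to -0.0012 for RALFL27, -0.0507 to 0.0658 for RALFL28, -0.406 to -0.162 for RALFL31, -1.07 to -0.424 for RALFL33, -0.0023 to 0.661 for RALFL34, -0.368 to -0.0023 for the family median (the upper end without control replicate 2), 1 to 2 genes at an unadjusted p under 0.05 (2 without control replicate 1 or 3, with 15.4% and 6.53% of all probe sets), 3 to 8 genes without overlap (8 without BL replicate 2, 6 without control replicate 1, 5 without control replicate 3, with 40.9%, 43.5% and 29.2% of all probe sets), and 674 to 3507 probe sets (674 without BL replicate 1, 867 without BL replicate 2, 3507 without control replicate 1). Where a lone BL array was left, it is assumed to vary like the controls. The cause of these shifts was not tested.

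With the replicate block RALFL32 was -2.19 (limma adjusted p = 0.888), and 3 genes had an unadjusted p under 0.05 (5.32% of all probe sets). No BL array has the number 3, so the block drops control replicate 3 and repeats the differences without it. Deviations of same-numbered arrays correlated at -0.060 and 0.037, which does not show that the numbers pair the samples. Averaging probe sets was not run, as each gene has 1, and overlap was not recomputed with a term for controls 2 and 3. Under the floor, RALFL25, RALFL26 and RALFL28 had no value above it and gave none. Signal over background was not analysed.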
